A study of Mus musculus with 6 samples.

Results

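In cultured mouse spermatogonial stem cells (SSCs), 71 long non-coding RNAs (lncRNAs) were higher after withdrawal of glial cell line-derived neurotrophic factor (GDNF) and were still higher 8 h after the factor was given back. They were chosen by their levels. The lowest CPM (reads of a transcript per 1000000 reads counted on lncRNAs) of the 4 withdrawn or refreshed samples had to reach at least 1.5 times the highest CPM of the 2 samples in normal culture. Only transcripts shorter than 10000 bases with at least 50 reads in at least 2 of the 6 samples were eligible, and the 30 transcripts with the most reads, with a few other named transcripts, were left out. Of 73710 transcripts listed in any sample, 12797 met these length and count conditions, and the 71 were 0.555% of them. Their differences from normal culture were therefore what selected them, and these are given below as a description without a test. The contrast of refreshed against withdrawn cells came from a test across all transcripts. The choice did not fix its direction, but it bounded the same 0h and 8h values from below. It so removed transcripts that fell back at 8h. It also removed 477 eligible transcripts that passed the margin at 8h and not at 0h. The balance of falls and rises among the members is therefore not independent of the choice.

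The cells were Thy1-positive germ cells sorted with magnetic beads from the testes of mice aged 6 to 8 days, C57BL/6 by the labels although the study also names Rosa26 transgenic mice as a source of its cultures, and kept as long-term lines on mitotically inactivated STO cells, a mouse fibroblast line. All 3 conditions started from culture with GDNF at 20 ng/ml, its soluble receptor GFRA1 at 150 ng/ml and basic fibroblast growth factor (FGF2) at 1 ng/ml. N samples stayed in that medium, 0h samples were taken after 18 h without GDNF, and 8h samples were taken 8 h after GDNF was returned to such cultures. Each condition had n = 2, from 2 independently established lines, and each line came from pooled pups. The cells were collected from the feeder layer by pipetting, and since the transcripts carry no gene names here, neither germ cell nor fibroblast markers could be read in these samples.

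GDNF acts on SSCs by binding GFRA1 and activating the receptor tyrosine kinase RET, and SSCs in culture depend on it to renew themselves. Taking it away and giving it back is a common way to find transcripts that answer to the factor within hours. LncRNAs are transcripts without a long protein-coding frame, and many are spliced, expressed at low levels and restricted to few cell types. Some act on chromatin or on neighbouring genes, some bind proteins or microRNAs, and for most no function is known. The 71 transcripts comprised 37 known lncRNAs, with NONCODE identifiers that begin with n, and 34 predicted lncRNAs assembled from these reads, with identifiers that begin with TCONS. Known lncRNAs made up 52.1% of the set and 59.9% of the 12797 eligible transcripts. No function of any of the 71 can be given, because the identifiers were not paired with gene names or sequences here.

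In units of 1000000, reads counted on lncRNAs ranged from 7.69 to 8.50 per sample. A count of 3 reads, the smallest taken as detection, was 0.353 to 0.39 CPM, and it covers counting error only. Normalization factors (TMM) lay between 0.9606 and 1.07, the highest being that of 8h replicate 1, and the biological coefficient of variation was 31.5%.

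The 71 lncRNAs together took 0.103% and 0.0916% of all reads in N replicates 1 and 2. This share was 0.264% and 0.280% at 0h, against 0.225% and 0.214% at 8h. Every withdrawn or refreshed sample thus stood above both N samples, as the choice of the set requires, and the 8h samples lay between the N and the 0h samples. In bulk RNA, a change in the number of cells that carry a transcript and a change in its level per cell cannot be told apart. The sums were dominated by few transcripts. The 6 with the highest mean CPM held 61.4% of the reads of the set, and TCONS_00065263 alone held 26.1%.

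At 0h the mean CPM was 1.66 to 18.99 times that in N, with a median of 2.55. At 8h it was 1.70 to 6.57 times that in N, with a median of 2.54. It reached at least 2 times the N mean in 52 of the 71 at 0h and in 59 at 8h, at least 3 times in 24 and 26, and at least 5 times in 7 and 5. Taken against the N sample with the same replicate number, 29 of the 71 were at least 2 times higher in all 4 withdrawn or refreshed samples. Similar medians at 0h and 8h did not mean that each transcript stood still. The 8h mean was below the 0h mean for 34 transcripts and at or above it for 37. For 15 of the 34, less than 50% of the difference between 0h and N remained at 8h.

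**Figure D1:**
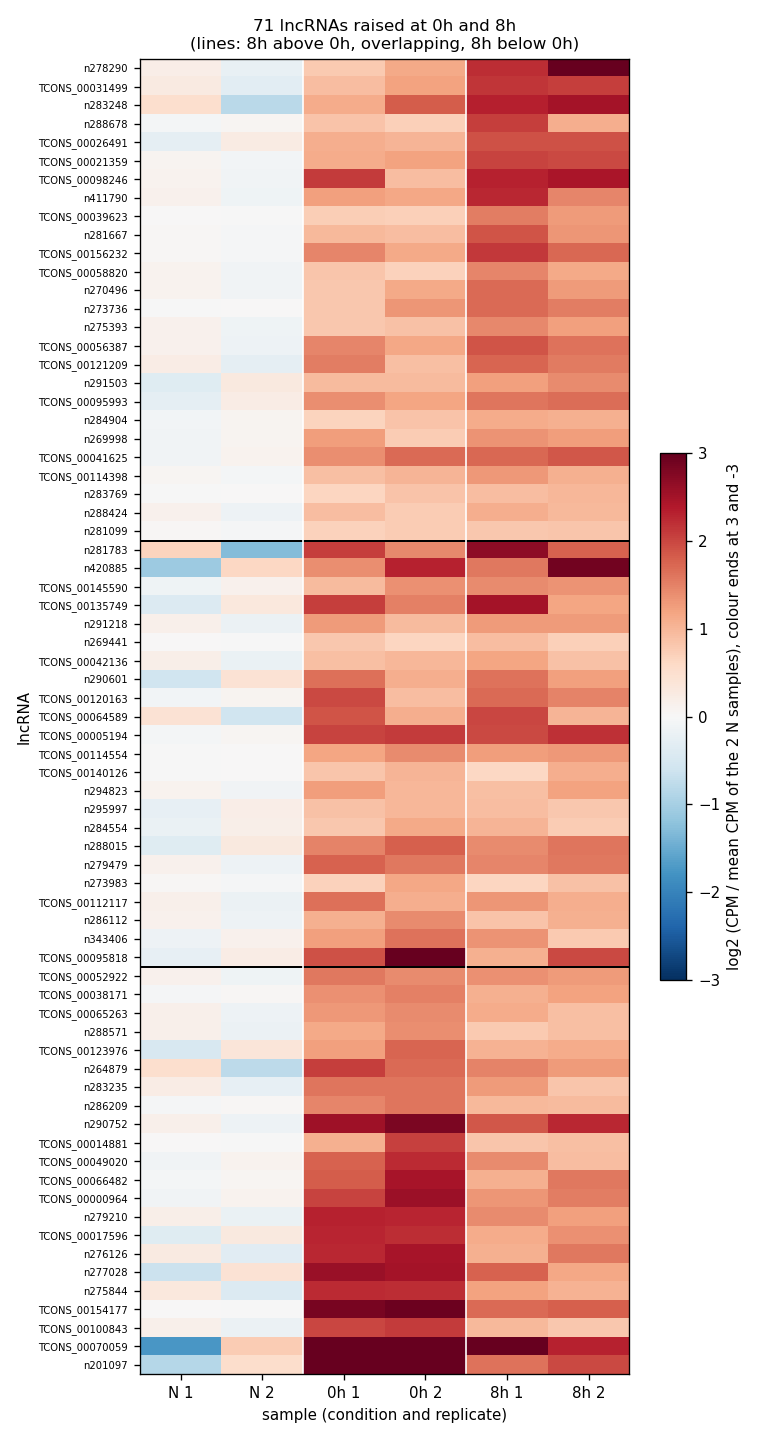
Heat map of the 71 lncRNAs (rows) in the 6 samples (columns), coloured by the log2 ratio of CPM to the mean of the 2 N samples. Rows are ordered by the 8h to 0h fold within 3 blocks, with both 8h samples above both 0h samples at the top (26 lncRNAs), overlapping samples in the middle (23) and both 8h samples below both 0h samples at the bottom (22). The 0h columns are darkest in the bottom block.

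The most abundant members gave the most precise counts. The predicted lncRNA TCONS_00065263, 3980 bases long, had 2395 and 2029 reads in N, 5507 and 6232 at 0h, and 4605 and 4150 at 8h. In CPM this was 276 ± 41.8 in N, 705 ± 40.0 at 0h and 559 ± 57.1 at 8h (SD, n = 2). It also had the highest level per length, with a mean RPKM (CPM per kilobase of transcript) of 69.4 in N, 177 at 0h and 140 at 8h. The 3 conditions did not overlap for this transcript, and both 8h samples lay below both 0h samples. TCONS_00038171, of 2799 bases, had 783 and 873 reads in N, 2172 and 2485 at 0h, and 1655 and 1896 at 8h. TCONS_00052922, of 4096 bases, had 592 and 522 reads in N, 1708 and 1582 at 0h, and 1392 and 1355 at 8h. Both transcripts showed the same order of conditions, with 8h close under 0h. The mean CPM of TCONS_00038171 was 2.71 times the N mean at 0h and 2.19 times at 8h, and that of TCONS_00052922 was 2.85 and 2.52 times.

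The most abundant known member, n294823, is 1175 bases long. It had 585 and 535 reads in N, 1353 and 1178 at 0h, and 1005 and 1287 at 8h. Its 0h and 8h samples overlapped, and per length it was second only to TCONS_00065263 in the set, with a mean RPKM of 59.5 in N, 130 at 0h and 124 at 8h. TCONS_00100843, of 2390 bases, behaved differently. It had 456 and 380 reads in N, 1696 and 1904 at 0h, and 788 and 729 at 8h, so that its mean CPM was 4.14 times the N mean at 0h and 1.85 times at 8h. The known lncRNA n283235, of 3065 bases, had 424 and 322 reads in N, 1162 and 1212 at 0h, and 865 and 664 at 8h. Both of these stood lower at 8h than at 0h in each replicate, with 27.2% of the difference between 0h and N left for TCONS_00100843 and 53.2% for n283235.

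**Figure D2:**
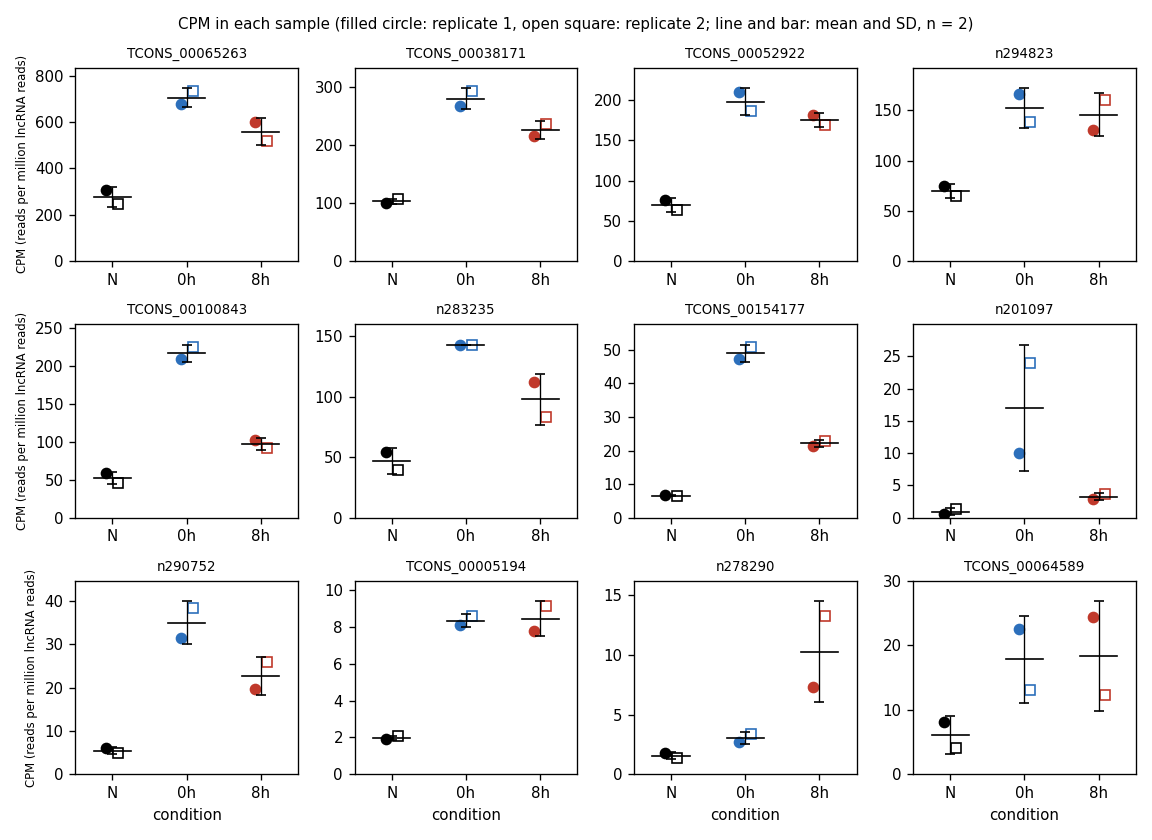
CPM of 12 members in each sample, on linear axes from 0 with a separate scale per panel. Circles are replicate 1, squares replicate 2, and the line and bar give the mean and SD (n = 2). TCONS_00065263, TCONS_00038171 and TCONS_00052922 lie a little under their 0h level at 8h, TCONS_00100843, TCONS_00154177 and n201097 lie between N and 0h, and n278290 is highest at 8h.

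The widest gaps to N belonged mostly to transcripts with few reads in N. TCONS_00005194, of 2186 bases, had 15 and 17 reads in N, 66 and 73 at 0h, and 60 and 73 at 8h, and its lowest withdrawn or refreshed sample was 3.78 times its highest N sample, the largest such ratio in the set. n290752, of 2623 bases, had 47 and 40 reads in N, 257 and 327 at 0h, and 151 and 207 at 8h. TCONS_00154177, of 5587 bases, had 52 and 54 reads in N, 384 and 431 at 0h, and 165 and 183 at 8h. These transcripts took different courses, TCONS_00005194 keeping its level between 0h and 8h and the other two standing lower at 8h. The mean CPM of n290752 was 6.45 times the N mean at 0h and 4.19 times at 8h, and that of TCONS_00154177 was 7.41 and 3.36 times. n279479, of 1194 bases, had 111 and 96 reads in N, 359 and 330 at 0h, and 273 and 311 at 8h. TCONS_00041625, of 1404 bases, had 18 and 22 reads in N, 53 and 69 at 0h, and 63 and 72 at 8h. At 8h their mean CPM was 2.88 and 3.46 times the N mean, and neither had its N samples near the others.

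TCONS_00070059, of 689 bases, had the largest 0h ratio and nearly no reads in N. It had 1 and 6 reads in N, 54 and 82 at 0h, and 27 and 17 at 8h. With reads summed over replicates and scaled to depth, the 0h to N ratio was 18.7, with an exact 95% interval of 8.86 to 47.5 that covers counting error only, and the 8h to N ratio was 6.43, with an interval of 2.87 to 16.9. n201097, of 1997 bases, had 4 and 11 reads in N, 82 and 203 at 0h, and 22 and 29 at 8h. Its 0h to N ratio was 18.3 (10.9 to 33.2), and its 8h to N ratio was 3.48 (1.93 to 6.66). These ratios describe the values that chose the transcripts. The 0h replicates of n201097 were far apart, at 82 and 203 reads. No member was without reads in both N samples.

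The members took different courses between 0h and 8h. Since the choice set a floor under the 0h and the 8h samples alike, the shares of members below are set beside those of other transcripts as a description, and nothing particular to the set is read from them. With both 8h samples above both 0h samples there were 26 transcripts, or 36.6%, against 27.2% of the eligible transcripts. With both 8h samples below both 0h samples there were 22, or 31.0%, against 22.7%, and in the other 23 the samples overlapped. On the TMM scale the median log2 difference between 8h and 0h was -0.07 over the members and -0.06 over the eligible transcripts, with 31 members above 0 and 40 below. Scaled to total counts, 37 were above 0 and 34 below, so the balance of directions in the set depended on the scaling. The median of the set lay near that of the other transcripts, and members spread to both sides of it.

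By edgeR's quasi-likelihood test at a Benjamini-Hochberg FDR below 0.05, 3 of the 71 fell between 0h and 8h, or 4.23%, against 0.45% of all 39310 transcripts tested and 1.16% of the eligible ones. Of these 3, 1 met the count condition only through its 0h samples, where it was highest, so this share is not independent of the choice. No member rose at this threshold, against 0.521% and 1.31%. At an unadjusted P below 0.05, 3 members were higher (4.23%, against 6.80% of all tested) and 19 lower (26.8%, against 6.91%) by the same test. At the FDR threshold DESeq2 called 0 members higher, against 0.93% of all tested, and edgeR's exact test called 1, against 1.52%. By the criterion used in the study, an unadjusted P below 0.05 and a difference of at least 2-fold, 10 members were lower (14.1%, against 4.1% of all tested) and 1 was higher (1.41%, against 5.11%). With the replicate number as a block in the fit, 13 members were lower (18.3%, against 2.84% of all tested and 7.35% of the eligible) and 1 was higher (1.41%, against 2.41% and 5.26%). Of the 13, 3 met the count condition only through their 0h samples, and the 1 higher met it only through its 8h samples. Other members kept FDRs above the threshold, which does not show that they were equal at 0h and 8h.

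The 3 transcripts that fell were n201097, TCONS_00100843 and TCONS_00154177. Of these, n201097 met the condition of 50 reads only through its 0h samples, where it was highest, which is also so for 3 of the 13 called with the block, n201097, TCONS_00070059 and TCONS_00095818. n201097 fell by 2.47 on the log2 scale (SE 0.46, edgeR FDR = 0.0305), TCONS_00100843 by 1.254 (SE 0.18, FDR = 0.00793) and TCONS_00154177 by 1.23 (SE 0.22, FDR = 0.0228). All remained above both N samples at 8h, as the choice of the set requires, with mean CPM of 3.24 against 0.924, 96.8 against 52.2 and 22.2 against 6.60. The calls did not all hold when a 0h or 8h sample was left out. Such a fit leaves 1 sample in that group and called fewer of all transcripts as well, so only log2 differences are given for it. Without 0h replicate 2 they were -1.74, -1.22 and -1.20 in the same order, and without 8h replicate 2 they were -2.68, -1.20 and -1.31. Without 0h replicate 1 they were -2.94, -1.28 and -1.26, and without 8h replicate 1 they were -2.26, -1.29 and -1.14. Of the 3 transcripts, n201097 alone moved much in size. With the block, the FDRs were 0.000216, 1.08e-05 and 0.00033.

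The block added 10 calls among the members that were lower at 8h, which are named here after their values were seen. They include the most abundant member, TCONS_00065263, which was lower by a log2 difference of -0.43 (SE 0.15) with an FDR of 0.215 without the block and 0.0259 with it. n283235, described above, had -0.64 (SE 0.20) with FDRs of 0.17 and 0.00759. TCONS_00000964 had 131 and 159 reads in N, 594 and 902 at 0h, and 346 and 419 at 8h. Its log2 difference was -0.97 (SE 0.22), with FDRs of 0.0629 and 0.000684 without and with the block. TCONS_00066482 had 93 and 105 reads in N, 352 and 583 at 0h, and 197 and 296 at 8h. Both transcripts were lower at 8h than at 0h in each replicate and had more reads in replicate 2 than in replicate 1 in all 3 conditions.

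The known lncRNA n275844 had 58 and 37 reads in N, 228 and 234 at 0h, and 106 and 99 at 8h, a log2 difference of -1.18 (SE 0.28) with FDRs of 0.0666 and 0.00373. n277028 had 28 and 62 reads in N, 274 and 265 at 0h, and 145 and 99 at 8h. Both stood between N and 0h at 8h, as did n290752 (FDRs of 0.223 and 0.0479) and TCONS_00070059 (0.151 and 0.0454), which were also called with the block. The last of the 10 were the following. TCONS_00014881 (block FDR 0.0454) had 71 and 73 reads in N, 154 and 318 at 0h, and 122 and 134 at 8h. TCONS_00095818 (block FDR 0.034) had 11 and 16 reads in N, 51 and 150 at 0h, and 27 and 53 at 8h. It was the only member called with the block whose 0h and 8h samples overlapped, since its reads at 8h in replicate 2 exceeded those at 0h in replicate 1.

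Transcripts that went on to higher levels at 8h had smaller differences and fewer reads. The largest 8h to 0h ratio of means, 3.36, was that of n278290, a known lncRNA of 1301 bases with 14 and 11 reads in N, 22 and 29 at 0h, and 56 and 106 at 8h. Its log2 difference was 1.66 (SE 0.43), with an edgeR FDR of 0.0891 and, with the block, 0.0161. n278290 met the condition of 50 reads only through its 8h samples, where it was highest, so this rise is not independent of the choice. Its 0h samples were 1.51 and 1.91 times its highest N sample, the first just past the margin that chose the set, and its ratio to the N mean went from 1.96 at 0h to 6.57 at 8h. The next 4 by this ratio were picked after their values were seen. TCONS_00031499 had 23 and 16 reads in N, 38 and 48 at 0h, and 83 and 82 at 8h, and n283248 had 19 and 8, 30 and 51, and 66 and 77. n288678 had 27 and 31 reads in N, 53 and 50 at 0h, and 116 and 62 at 8h, and TCONS_00026491 had 12 and 18, 32 and 32, and 54 and 56. None of these 4 was called, the FDRs lying between 0.255 and 0.429, and the 8h replicates of n288678 were themselves far apart. Without their 8h samples, TCONS_00031499, n283248 and TCONS_00026491 would not have met the condition of 50 reads in at least 2 samples.

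**Figure D3:**
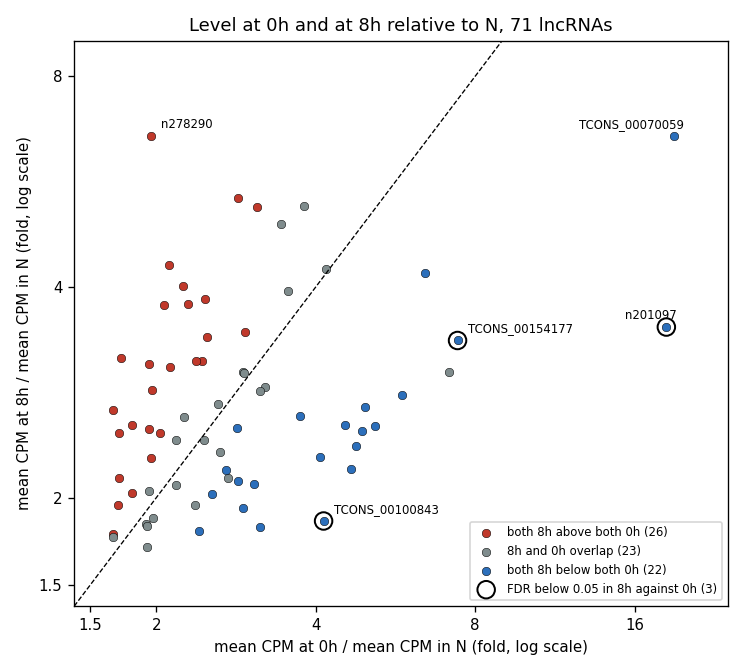
Mean CPM at 0h (horizontal) and at 8h (vertical) as a multiple of the N mean for each of the 71 lncRNAs, both on log scales. The dashed line marks equal levels, colours separate the 26, 23 and 22 transcripts by the position of their 8h samples, and rings mark the 3 with an FDR below 0.05 in 8h against 0h. Transcripts far to the right at 0h lie below the line, and n278290 lies highest above it.

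Of the 3 courses, only that with lower 8h samples stood apart in level. The 22 transcripts with both 8h samples below both 0h samples had a median mean CPM of 17.3, against 6.54 for the 26 with both above and 6.62 for the 23 with overlap. Their median ratio to the N mean was 4.34 at 0h and 2.44 at 8h. For the 26 it was 2.00 and 3.12, with 8h to 0h ratios between 1.07 and 3.36 and a median of 1.45. The courses were sorted by these same 0h and 8h values, and the choice set a floor under both. These ratios therefore describe the sorting, and the mean CPM holds the same 0h and 8h values. Known and predicted lncRNAs occurred in every course, with 10 and 12 in the lower, 13 and 10 in the overlapping and 14 and 12 in the higher one. Their lengths had medians of 2649.5, 1745 and 2394.5 bases in the same order.

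The 2 replicates differed little in most members. In a fit with condition and replicate number, the median size of the log2 difference between replicates was 0.16 over the members, 0.21 over the eligible transcripts and 0.34 over all tested, where the choice of the set itself limits this difference. TCONS_00064589 alone was called, lower in replicate 2 by a log2 difference of -0.90 (SE 0.20, edgeR FDR = 0.0142), against 1.14% of all tested transcripts and 2.52% of the eligible ones. No member was higher in replicate 2 by edgeR at an FDR below 0.05, against 1.34% of all tested and 3.7% of the eligible transcripts. DESeq2 called 0 members higher, against 1.08% of all tested. At an unadjusted P below 0.05 by edgeR, 5 members were higher and 5 lower, without a share of all transcripts to set beside them. TCONS_00064589 had 64 and 33 reads in N, 184 and 111 at 0h, and 187 and 99 at 8h. Its level at 0h and 8h was therefore about 3 times that in N within each replicate, with ratios of means of 2.93 and 3.01, although the replicates stood apart throughout. Leaving out one sample at a time gave FDRs of 0.0424 to 0.0648 and took the call away in 5 of the 6 fits, all but that without 8h replicate 2. Within replicates, 27 members were lower at 8h than at 0h in both, 29 were higher in both and 15 had opposite directions (21.1%, against 28.6% of the eligible transcripts).

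The members were moderately long and mostly of low abundance. Their length ranged from 588 to 6211 bases, with a median of 2186, against 2114 for the eligible transcripts. The mean count per sample had a median of 60.8, against 128.5, and lay under 100 in 45 of the 71 and over 300 in 8. Fewer than 50 reads in both N samples were found in 42 members, which met the count condition through their 0h and 8h samples. Without the 0h samples 14 members, and without the 8h samples 19, would not have met it. In 22 members both N samples held at least 50 reads.

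The part of the transcript length covered by reads, as the authors computed it, had a median over members of 55.2% and 55.8% in the N replicates, 80.5% and 82.6% at 0h, and 84.9% and 81.1% at 8h. It was higher in all 4 withdrawn or refreshed samples than in both N samples in 49 members (69.0%), against 8.91% of the eligible transcripts. Coverage rises with the number of reads, so it is not a measure independent of the choice. The 12797 eligible transcripts had medians of 77.9%, 78.5% and 80.5% in the 3 conditions. In 13 members more than 90% of the length was covered in all 4 withdrawn or refreshed samples. In 6 members less than 30% was covered in every sample, namely TCONS_00120163, n420885, n286112, n343406, n288678 and n284554, picked by their coverage. n286112, for example, had 79 and 68 reads in N, 156 and 207 at 0h, and 128 and 154 at 8h over 21.4% to 26.1% of its 1814 bases. For these transcripts the reads came from a small part of the annotated length, and values per length would understate the level of that part.

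**Figure D4:**
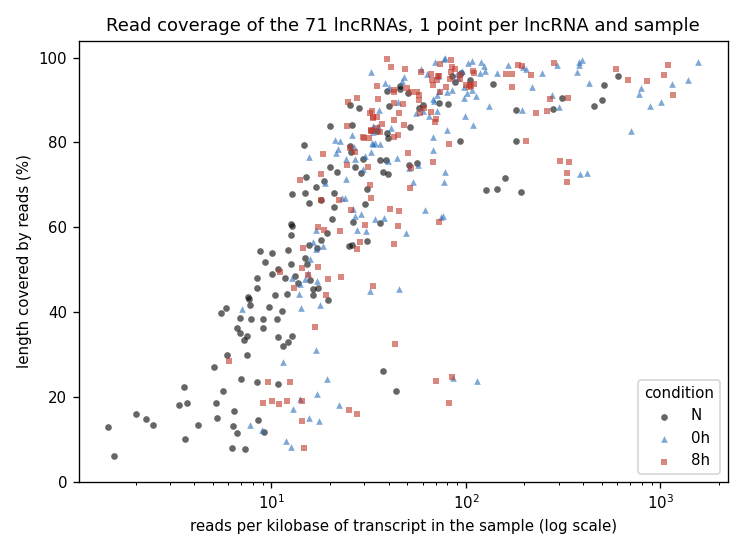
Percent of the transcript length covered by reads (vertical) against reads per kilobase in that sample (horizontal, log scale), with 1 point for each of the 71 lncRNAs in each of the 6 samples. Coverage climbs with reads per kilobase in all 3 conditions, and the points of 6 transcripts stay under 30% throughout.

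Among all eligible transcripts, 331 (2.59%) had both 0h samples at least 1.5 times above both N samples, and the 71 members were 21.5% of these. In 166 (50.2%) both 8h samples had come back under that margin, and in 94 (28.4%) 1 of the 2 had. In 38 (11.5%), a subset of the 166, both 8h samples were at or below the higher N sample. The 166 had a median log2 difference between 8h and 0h of -0.96 and a median mean CPM of 9.86 in N, 20.9 at 0h and 11.5 at 8h, whereas the members had 4.31, 9.83 and 10.6. The members thus had the lower median in N, but the N level was part of the choice. They could also meet the count condition through raised samples at both 0h and 8h. The lower N level is therefore not a trait read apart from the choice, and the difference in course between the 2 sets is the one that separated them. Known lncRNAs made up 60.2% of the 166, with a median length of 2039 bases. Another 477 eligible transcripts passed the margin at 8h and not at 0h. The mirror image of the set, with all 4 withdrawn or refreshed samples lower than both N samples by the same margin, held 78 transcripts (0.610%).

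The edge of the set was not a gap in the data. The 3 members nearest the margin of 1.5 were n284904, TCONS_00058820 and n278290, with ratios of 1.503, 1.504 and 1.512. n284904 had 33 and 39 reads in N, 58 and 69 at 0h, and 75 and 75 at 8h, and TCONS_00058820 had 87 and 79, 151 and 142, and 221 and 181. Just outside were n282588 (1.498), n295194 (1.497) and TCONS_00082338 (1.495). TCONS_00082338 had 82 and 100 reads in N, 148 and 173 at 0h, and 226 and 211 at 8h, and resembled TCONS_00058820 in every condition. Each sample also set the number of members, since without N replicate 1 the same rule held for 338 transcripts, without N replicate 2 for 292, without 0h replicate 1 for 146, without 0h replicate 2 for 102, without 8h replicate 1 for 95 and without 8h replicate 2 for 117.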

How the data were processed

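Total RNA of 6 SSC samples was depleted of ribosomal RNA, primed with random hexamers and sequenced on an Illumina HiSeq instrument. The authors deposited for each sample the count of uniquely mapped reads per lncRNA, without normalization, beside the transcript length. The deposited RPKM is the count per kilobase of length, scaled to all counted reads of the sample, checked to a relative tolerance of 1e-06. The coverage deposited by the authors is the percent of a transcript with reads on it, with a few values slightly over the full length. Known lncRNAs came from NONCODE, and predicted ones from Cufflinks assembly and the Coding Potential Calculator. The aligner, the counting tool and the genome build are not given in the sources used here. A transcript not listed in a sample was given a count of 0, and no mRNA was analysed here.

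CPM was computed as the count divided by the sample total. Counts of 39310 transcripts with at least 10 reads in at least 2 samples were tested with edgeR 4.0.16 (quasi-likelihood, TMM, R 4.3.3), with all 6 samples and 3 groups in 1 fit and Benjamini-Hochberg adjustment over all transcripts tested. Depth was 7.69 to 8.50 counted reads per sample in units of 1000000, and the fit had 3 residual degrees of freedom. The SE printed beside a log2 difference is the size of that difference divided by the square root of the test's F statistic. It is not an SE that edgeR reports. The test was checked on simulated counts, where it recovered a minority of changes of 1 on the log2 scale and most changes of 2. DESeq2 1.42.0, edgeR's exact test, other scalings, other filters, a replicate block and samples left out were alternatives. Only fits with a replicate term treated samples with the same number as paired, and the main test of 8h against 0h had none. Each line was carried through the 3 conditions. Deviations of same-numbered samples from their condition mean correlated at 0.183, 0.197 and 0.223 across tested transcripts, and at 0.415, 0.427 and 0.484 across eligible ones. That the numbers stand for the lines is inferred from these correlations and from the study's methods.

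Members, lists and tests were chosen with earlier results of these data known. The transcripts named are the 6 most abundant members, the 6 with the largest ratio of lowest 0h or 8h CPM to highest N CPM, members without reads in N, up to 4 called members per direction in 8h against 0h, up to 3 in the replicate contrast, and the 3 nearest each side of the margin. Others are said to be picked after their values were seen.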

Additional observations from a re-analysis of the deposited data

Results flagged for a closer look

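Among the members named by rule, 4 moved from 0h to 8h in opposite directions in the 2 replicates, and for none of them was the difference between replicates tested. For n294823 the log2 ratio of CPM at 8h to that at 0h was -0.347 in replicate 1 and 0.214 in replicate 2. For TCONS_00005194 it was -0.0552 and 0.0859, for n279479 -0.313 and 0.000337, and for TCONS_00064589 0.106 and -0.0792. Opposite directions were found in 15 of the 71 members (21.1%) and in 28.6% of the eligible transcripts.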

How the results depend on the processing

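The number of members followed the margin and the count minimum, with 255 transcripts at the lower ratio tried, 18 at a ratio of 2, 313 with at least 20 reads and 30 with at least 100. With TMM-scaled CPM there were 67, of which 62 were shared, and without a length limit 71. Leaving out 1 sample gave 95 to 338. For 8h against 0h, the 3 members called lower (0.45% of all tested) became 5 by DESeq2 (0.885%) and 7 by edgeR's exact test (1.14%). They became 7 without a filter (0.703%), 1 in a fit of 0h and 8h alone (0.116%) and 13 with the replicate block (2.84%). The 0 called higher became 1 by the exact test (1.52% of all tested), 1 without a filter (0.777%) and 1 with the block (2.41%). For replicate 2 against replicate 1, the 0 higher became 4 with a minimum of 50 reads (6.86% of all tested) and 2 without a filter (1.06%). The 1 lower became 2 with a minimum of 50 reads (4.85%). DESeq2 gave no adjusted p for 4 members in that contrast. A fit with a sample left out leaves 1 sample in a group and called a smaller share of all transcripts in both contrasts. The number of members called in such fits is therefore not given. Over all 71 members, 6 turned direction in 8h against 0h with total counts in place of TMM, 4 with a minimum of 50 reads, 1 in a fit of 0h and 8h alone and at most 8 with a sample left out. Among the 27 named members, those that turned were never called. They were TCONS_00005194 (0.0213) and TCONS_00064589 (0.0428) with total counts in place of TMM, and, with a sample left out, n294823 (-0.342 to 0.0321), TCONS_00005194 (-0.215 to 0.0841) and TCONS_00064589 (-0.57 to 0.41). The cause was not tested. Of 389 alternative values for the 27 named members, 342 kept direction and call, 17 lost a call, 23 gained one and 7 turned direction.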

Other observations

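Predicted lncRNAs are numbered by the assembly, and close numbers often mark transcripts assembled close together, although no coordinates were used here. No 2 members lay within 5 numbers of each other, the smallest gap being 156. Of the 34 predicted members, 14 had 16 eligible neighbours within 5 numbers. In 5 of the 16 (31.2%) all 4 withdrawn or refreshed samples were above both N samples, against 9.45% of the eligible transcripts. The neighbour nearest the margin was TCONS_00042137, next to the member TCONS_00042136, with 115 and 83 reads in N, 171 and 194 at 0h, and 188 and 164 at 8h. Its ratio of the lowest 0h or 8h CPM to the highest N CPM was 1.39, and it was picked after its value was seen. Reads shared between overlapping transcripts of a locus could not be told apart from separate transcripts.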
